A study of Saccharomyces cerevisiae BY4741 with 238 samples.

Results

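The 56 genes described here encode the cytosolic translation machinery of Saccharomyces cerevisiae outside the ribosome itself: initiation, elongation and termination factors and aminoacyl-tRNA synthetases. They were taken from a named list of such factors, as rows of the expression table whose values averaged 10 or more across the libraries, and no measured drug response entered the rule. They are 56 of the 6717 features in the table, of which 5015 reached that mean and were tested. By role, 11 are elongation factors, 7 belong to the eIF4 group, 6 to eIF3, 4 are eIF1, eIF1A, eIF5 and eIF5B, 8 are subunits of eIF2 and eIF2B, 2 are release factors and 18 are synthetases.

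Transcript levels were measured in 238 cultures of the haploid laboratory strain BY4741, each grown in 1 well of rich YPD medium with 1 of 4 growth inhibitors, with a pair of them, or with none. The drugs were cycloheximide, which blocks translation elongation on the ribosome, LiCl, a toxic salt, myriocin, an inhibitor of sphingolipid synthesis, and rapamycin, an inhibitor of TOR complex 1. Grids of concentrations were kept in growth by repeated automatic re-inoculation, and RNA was taken from chosen wells at the end of the third round of growth, with those growing at about 0.5 of the normal rate preferred per the labels. All cultures share the strain, the medium and this regime, and the labels describe an overnight flask culture spread over plates and name no separate inocula, so p-values measure the spread between wells.

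The drug-free group held 11 cultures. Single-drug cultures with a relative growth of 0.35 to 0.66 of the drug-free rate, called growth-matched, numbered 10 for cycloheximide, 10 for LiCl, 11 for myriocin and 11 for rapamycin. Their relative growth was 0.533 ± 0.052, 0.553 ± 0.051, 0.541 ± 0.0841 and 0.506 ± 0.0793 (mean ± SD). A further 13, 18, 14 and 19 single-drug cultures lay outside that range of growth. They entered only the gradients, except that 6 of the 14 with myriocin entered no fit, 5 because they grew at under 0.35 and 1 because it came from another experiment. The mixtures numbered 22 for cycloheximide with LiCl, 20 for cycloheximide with myriocin, 19 for cycloheximide with rapamycin, 26 for LiCl and myriocin, 18 for LiCl and rapamycin, and 16 for myriocin and rapamycin. In that order their mean relative growth was 0.496, 0.463, 0.439, 0.471, 0.520 and 0.522, so contrasts between mixtures are not exactly matched in growth. Within the experiment of each mixture, the median growth-matched dose of cycloheximide alone was 0.0593 µg/ml beside LiCl, 0.0657 µg/ml beside myriocin and 0.0673 µg/ml beside rapamycin, and that of rapamycin was 0.00583 µg/ml. An experiment is the grid of 1 drug pair, and every mixture comes from a single experiment. A mixture and its experiment are therefore separated only through the single-drug and drug-free conditions that experiments share. Every mixture well also has the same level of a batch label, the growth-reference set. All drug-free wells in the grids of cycloheximide with myriocin, LiCl with myriocin, and myriocin with rapamycin have the other level. So do the single-drug wells of the first of these grids. In those grids a mixture set against no drug relies on a set term estimated from other wells.

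Translation begins when eIF2, recharged by its exchange factor eIF2B, brings the initiator tRNA to the small ribosomal subunit, where eIF1, eIF1A, eIF3 and eIF5 hold it ready for messenger RNA delivered by the eIF4 group, and eIF5B then joins the large subunit. During elongation eEF1A delivers aminoacyl-tRNA, eEF2 moves the ribosome along by a codon, and eEF3, a factor of fungi, releases spent tRNA. The synthetases charge each tRNA with its amino acid. Cycloheximide binds the large subunit at the exit site for tRNA and stops translocation, while rapamycin lowers the activity of the TOR pathway that drives transcription of the translation machinery in well-fed yeast. Genes for this machinery are transcribed heavily in growing cells, and several exist as pairs of near-identical copies.

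Both members of the eIF5A pair are shown by sequence, because ANB1 had the largest change of any member and HYP2 had almost none. eIF5A helps the ribosome past stretches that are slow to form peptide bonds. HYP2 is the copy known to be used in aerobic growth and ANB1 the copy known to be repressed in aerobic growth by Rox1, which binds DNA around the letters ATTGTT. Their coding sequences of 474 bases are 90.9% identical, with 43 differing bases, and in the last 60 coding bases, written 5′ to 3′ on the coding strand with the differing bases in capitals, 9 differ.
HYP2 (chrV:86090-86149, plus strand, build R64): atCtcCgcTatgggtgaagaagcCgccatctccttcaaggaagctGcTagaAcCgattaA
ANB1 (chrX:524908-524967, minus strand, build R64): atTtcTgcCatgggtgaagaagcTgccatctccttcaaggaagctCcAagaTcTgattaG
The windows from 350 to 101 bases before their start codons, read from the RefSeq R64 genome with every ATTGTT on either strand in capitals, differ in that the ANB1 window holds 4 copies, the farthest starting 312 bases before the start codon, and the HYP2 window holds 0.
ANB1 (chrX:525482-525731, minus strand): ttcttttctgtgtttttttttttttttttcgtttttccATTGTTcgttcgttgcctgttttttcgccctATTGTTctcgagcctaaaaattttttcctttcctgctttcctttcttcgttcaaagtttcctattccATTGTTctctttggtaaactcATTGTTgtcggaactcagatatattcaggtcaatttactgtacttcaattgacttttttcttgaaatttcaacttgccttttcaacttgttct
HYP2 (chrV:85326-85575, plus strand): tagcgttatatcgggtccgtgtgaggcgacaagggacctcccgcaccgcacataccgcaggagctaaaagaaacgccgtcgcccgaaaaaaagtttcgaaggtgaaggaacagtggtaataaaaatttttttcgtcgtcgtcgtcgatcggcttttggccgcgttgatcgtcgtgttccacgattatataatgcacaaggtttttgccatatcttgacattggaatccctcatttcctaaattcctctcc
Of 4733 windows of this length upstream of tested genes, 28.1% hold the letters on either strand, as do 12 of the 56 windows of the members (21.4%), so a match alone is a description and not a site. ANB1 lies beside CYC1, the cytochrome c gene, which is read from the opposite strand and starts 954 bases away from it.

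Another pair that diverged is that of eEF3, with YEF3 as the main gene and HEF3 as a copy of low expression. Their coding sequences are both 3135 bases long and differ at 784 bases. The last 60 coding bases, with the 9 differing bases in capitals, are as follows.
YEF3 (chrXII:639855-639914, plus strand, build R64): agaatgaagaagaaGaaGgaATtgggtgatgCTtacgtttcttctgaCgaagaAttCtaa
HEF3 (chrXIV:609394-609453, plus strand, build R64): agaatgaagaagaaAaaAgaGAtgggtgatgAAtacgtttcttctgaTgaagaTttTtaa
Reads of these libraries come from the 3′ ends of transcripts, and these differences and those after the stop codon decide how far the copies can be told apart. TEF1 and TEF2, which encode eEF1A, have 2 differing bases in 1377 and 0 in the last 60, EFT1 and EFT2 of eEF2 have 4 in 2529 and 0 in the last 60, and TIF1 and TIF2 of eIF4A have 6 in 1188 and 2 in the last 60. The treatment of reads with several matches is not given in the sources used here, so values of TEF1, TEF2, EFT1, EFT2, TIF1 and TIF2 are uncertain as values of single genes.

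Values are quantile-normalised counts, so every library has the same distribution of values and a change shows a gene moving against the rest of its library. More or less total messenger RNA in a culture, or in each cell, cannot be seen and cannot be told apart. The read depth estimated from ties in the table ran from 64843 to 2017612 per library around a median of 568842, and 8 libraries had less than 0.25 of it. The markers of the MATa mating type were present, with means of 221 for MFA1 and 122 for STE2, and those of the other mating type were near the floor, at 0.285 for MF(ALPHA)1 and 1.26 for STE3, with 9.78 for MF(ALPHA)2. Drug-free levels of some members differed between experiments: CDC60 read 52.9 and 54.9 in the grid of LiCl with myriocin and 83.4 to 174 in the others. All 5015 genes were fitted together with limma, with terms for the experiment and for a batch label of the growth reference, and calling a gene took a change of at least 1.5-fold and, over the 5015 genes, a Benjamini-Hochberg adjusted p below 0.05. Log2 changes are given on the log2(value + 1) scale with the standard error after ±.

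Against no drug, the growth-matched cultures showed few called changes among the 56 genes. Cycloheximide called 0 members in limma (14 at an unadjusted p under 0.05), where 3.53% of all tested genes were called, and the median change of the members was -0.02 against -0.04 over all genes. LiCl called 0 (13 at an unadjusted p under 0.05), with 10% of all genes called. Myriocin called 1, SUI1, with 8.77% of all genes called. Rapamycin also called 0 at the 1.5-fold minimum, where 6.92% of all genes were called, but its members lay mostly on 1 side: 52 of 56 had a negative change, with a median of -0.21 against -0.05 over all genes. By the adjusted p alone, 20 of the 56 (35.7%) were lower under rapamycin and 0 higher, where 10.4% of all genes were lower by that rule. Within single experiments the median of the members under rapamycin was -0.14, -0.26 and -0.17 (39, 49 and 48 of 56 below 0), beside -0.02, -0.08 and -0.04 over all genes. Those experiments held 2, 4 and 5 rapamycin cultures beside 2, 2 and 1 drug-free ones. These contrasts share the same 11 drug-free cultures.

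Setting cycloheximide directly against the other drugs at matched growth compares a block of elongation with inhibitors that act elsewhere. Against rapamycin 7 of the 56 genes (12.5%) were called, all higher under cycloheximide, where 6.34% of all genes were called: CDC60, RPG1, MES1, SUP35, TIF5, GLN4 and FUN12. By the adjusted p alone 17 (30.4%) were higher and 1, CAM1, was lower, where 7.14% of all genes were higher by that rule. Changes were positive for 52 of 56 members, with a median of 0.19 against 0.00 over all genes. In the only experiment that held both drugs alone, 7 cycloheximide and 2 rapamycin cultures differed in the same direction for 49 of 56 members, with a median of 0.22 against -0.02 over all genes. The count was 4 without cycloheximide replicate 1 and 3 without rapamycin replicate 11, and 2 (RPG1 and CDC60) with a pseudocount of 10. Against myriocin only CDC60 of the 56 was called, where 5.5% of all genes were. Only 1 experiment held cycloheximide and myriocin alone, with 1 culture of each. There CDC60 changed by -0.67 under cycloheximide and by -1.04 under myriocin against 2 drug-free cultures. Cycloheximide and LiCl alone also shared 1 experiment, with 2 cultures of each. Against LiCl limma called 0 members (5 at an unadjusted p under 0.05) with 7.08% of all genes called, and against the mean of the 3 other drugs it called 0 members (9 at an unadjusted p under 0.05) with 2.15% of all genes called.

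Among mixtures, the 3 that contain cycloheximide were compared with the 3 that do not. CDC60, MES1, NIP1, RPG1 and TIF4631 were higher with cycloheximide, 5 of 56 (8.93%) with 0 lower, where 4.99% of all genes were called. By the adjusted p alone 32 of the 56 (57.1%) were higher and 1, CAM1, was lower, where 11.1% of all genes were higher by that rule, and the median of the members was 0.24 against -0.02 over all genes. Without the experiment and reference terms 17 of the 56 were called, and 557 of the 5015 tested genes, so the size of this difference depends on how experiments are aligned.

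Each mixture was also set against no drug. The mixtures of LiCl with rapamycin and of myriocin with rapamycin had medians of -0.22 and -0.18 over the members, and by the adjusted p alone 14 (25%) and 9 (16.1%) were lower, where 7.16% and 3.79% of all genes were. The mixture of cycloheximide with rapamycin had a median of 0.12 and 0 members lower by that rule. At the 1.5-fold minimum the members called were ANB1 and FUN12 in cycloheximide with LiCl (6.96% of all genes called), SUI1 and TIF5 in cycloheximide with myriocin (9.59%), FUN12 in cycloheximide with rapamycin (7.2%), ANB1 in LiCl with myriocin (12.8%), HEF3 in LiCl with rapamycin (6.6%) and SUP35 in myriocin with rapamycin (4.41%).

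The midpoint of the 2 single-drug means gives the level a mixture would have if the drugs contributed equally. The mixture of cycloheximide with rapamycin lay above its midpoint for 54 of 56 members, with a median of 0.24 against 0.02 over all genes. Its mean relative growth, 0.439, was below that of growth-matched cycloheximide (0.533) and rapamycin (0.506) alone. By the adjusted p alone 26 members (46.4%) were higher, where 5.58% of all genes were. At the 1.5-fold minimum NIP1 was called there, where 1.6% of all genes were, and ANB1 was called lower than the midpoint in LiCl with myriocin, where 2.49% were. Limma called 0 members in cycloheximide with LiCl (7 at an unadjusted p under 0.05) with 0.219% of all genes called, 0 in cycloheximide with myriocin (16) with 1.2%, 0 in LiCl with rapamycin (6) with 0.379%, and 0 in myriocin with rapamycin (6), where 0% of all genes were called and 290 had an unadjusted p under 0.05. NIP1 was no longer called in cycloheximide with rapamycin without shallow libraries, with a pseudocount of 10, in a narrower range of growth or without batch terms.

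**Figure D1:**
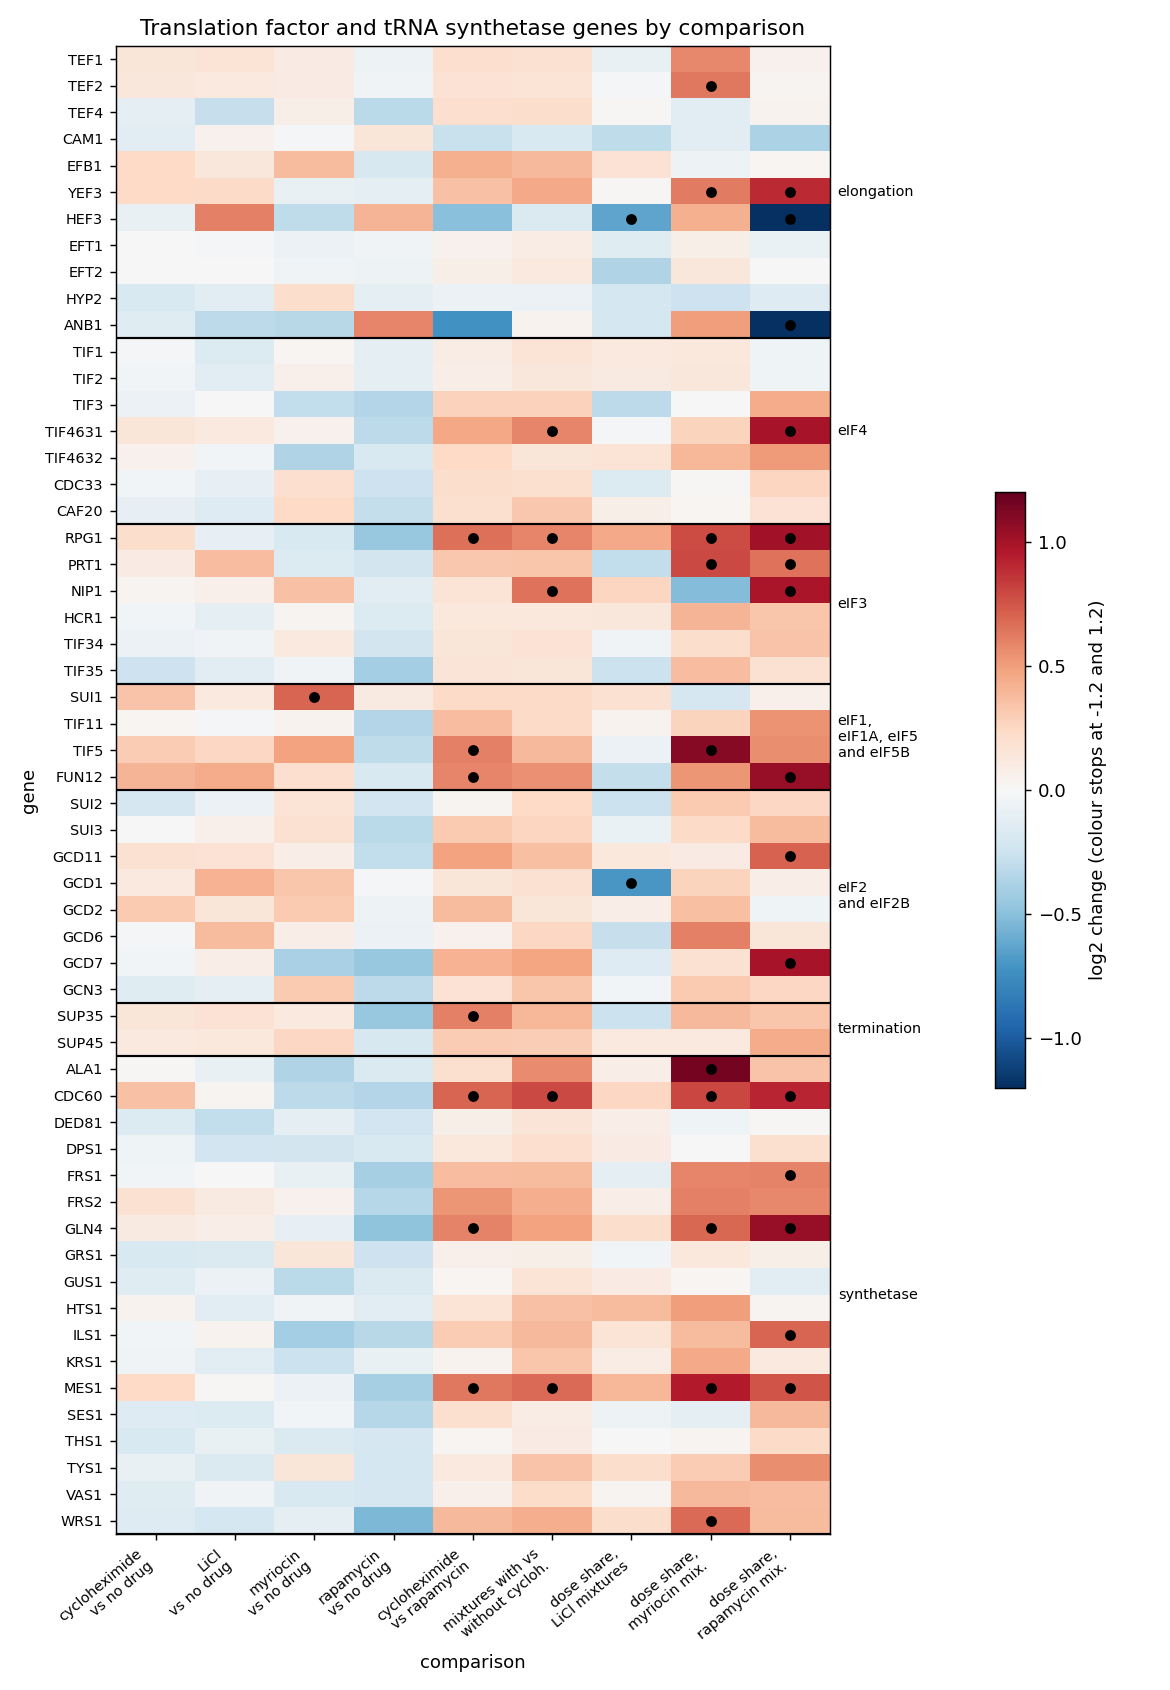
Log2 change of the 56 genes (vertical axis, grouped by role) in 9 comparisons (horizontal axis), with colour from blue (lower) to red (higher) that stops at -1.2 and 1.2 and a dot where a gene was called. The column of rapamycin against no drug is mostly pale blue with 0 dots, and the columns of cycloheximide against rapamycin and of dose share in rapamycin mixtures hold 7 and 15 dots.

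Within a mixture, the dose share of cycloheximide is its dose over the median growth-matched dose of cycloheximide alone, taken as a part of the same ratios summed over the pair, and a slope on it follows the exchange of the partner drug for cycloheximide among wells of similar growth. It is given per whole unit of share, while the wells covered shares of 0.161 to 0.884 with LiCl, 0.130 to 0.839 with myriocin and 0.145 to 0.870 with rapamycin. With rapamycin 13 members rose and 2 fell with the share, 15 of 56 (26.8%), where 19.2% of all genes were called. With myriocin 10 rose and 0 fell (17.9%), where 6.7% were called. With LiCl 0 rose and 2 fell (3.57%), where 17.2% were called. By the adjusted p alone 4 members (7.14%) rose and 13 (23.2%) fell with LiCl. By that rule 22 (39.3%) rose and 3 (5.36%) fell with rapamycin, and 13 (23.2%) rose and 0 fell with myriocin. The share of all genes by that rule was not counted for these slopes. The median slope of the members was 0.30 with rapamycin, 0.31 with myriocin and 0.02 with LiCl, beside 0.04, 0.06 and -0.02 over all genes. The rapamycin and myriocin mixtures are separate cultures, and 6 genes were called in both: CDC60, GLN4, MES1, PRT1, RPG1 and YEF3, which are 60% of the myriocin list and 40% of the rapamycin list. The overlap of the lists over all genes was not counted, so these shares have no background beside them.

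Other properties of the wells moved with the share. In the rapamycin mixtures the final optical density (OD600) rose with it, from a median of 0.518 at low share to 0.697 at high share, with a Spearman correlation of 0.81 over 19 wells, and relative growth rose too (0.58). With final optical density as a covariate, chosen after the data were seen, 2 of the 15 members were called, YEF3 (1.23, limma adjusted p = 0.011) and FUN12 (1.57, 0.0178). All 15 slopes kept their direction, some of them steeper than without it, such as TIF4631 (1.48), and others flatter, such as GCD7 (0.60). With relative growth as a covariate all of the 15 but NIP1 (1.15, limma adjusted p = 0.0556) kept an adjusted p under 0.05. FRS1 (0.58) then lay just under the fold minimum. In the myriocin mixtures the estimated depth rose with the share, from a median of 210330 to 310301 reads, with a Spearman correlation of 0.68 over 20 wells. With depth as a covariate 3 members were called, of which ALA1 and CDC60 were among the 10. All 10 slopes kept their direction, from 0.33 for TEF2 to 1.48 for CDC60. Of the genes called in both mixtures, CDC60 alone kept its myriocin call. The part of these well properties in the slopes beyond these values was not tested.

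Differences between the slopes were tested in 1 fit over the 3 mixtures. The slope was higher with rapamycin than with LiCl for 8 members and lower for ANB1, where 12.7% of all genes differed. It was higher with myriocin than with LiCl for 11 members, where 9.77% of all genes differed. Between rapamycin and myriocin 4 members differed, ANB1, HEF3, ALA1 and TEF2, all lower with rapamycin, where 7.16% of all genes differed.

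The single-drug gradients follow the members from drug-free growth downwards within 1 experiment, and the fitted line is read off where relative growth is 0.5. Cycloheximide (22 cultures) called 0 members in limma (18 at an unadjusted p under 0.05), with 5.32% of all genes called, and LiCl (26 cultures) called HEF3, with 6.74%. Myriocin (17 cultures) called SUI1, with 7.84%, and rapamycin (25 cultures) called ANB1 and HEF3, both higher, with 6.04%. By the adjusted p alone 21 members (37.5%) were lower along the rapamycin gradient, where 14.9% of all genes were. Over all comparisons 26 members were called at least once and 30 in none. The share of all tested genes called at least once was not counted, so these counts have no background beside them.

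**Figure D2:**
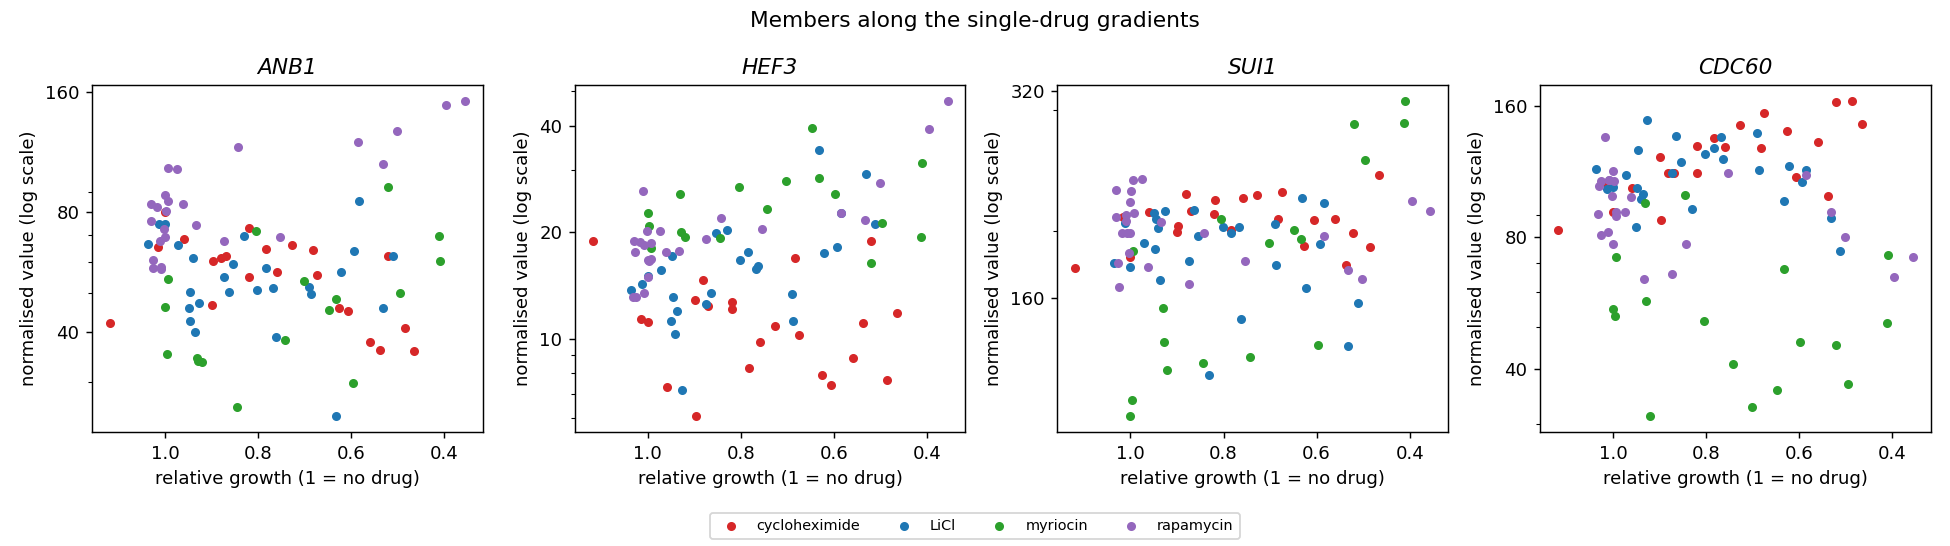
Normalised values (log scale) of ANB1, HEF3, SUI1 and CDC60 against relative growth, which falls to the right, in the gradient cultures of cycloheximide, LiCl, myriocin and rapamycin, each point 1 culture. ANB1 rises towards low growth under rapamycin (purple), and SUI1 rises under myriocin (green), at a change of 0.72 and 0.92 at a relative growth of 0.5.

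Among the elongation factors, ANB1 had the largest slope on dose share beside rapamycin on the log2 scale. In drug-free cultures it read 29.7 at the lowest, 53.6 at the median and 88.5 at the highest. Under growth-matched rapamycin it read 55.9, 113 and 152, and under growth-matched cycloheximide 35.8, 40.6 and 109, where the highest is a library of 104188 reads and the next is 62.03. The groups overlap with the drug-free one, and neither contrast was called (0.58 ± 0.273, limma adjusted p = 0.13 for rapamycin, -0.14 ± 0.285 for cycloheximide, adjusted p = 0.815). Along the rapamycin gradient ANB1 rose by 0.72 ± 0.0919 at a relative growth of 0.5 (limma adjusted p = 2.26e-07). Along the cycloheximide gradient the line gave -0.53 ± 0.161 (adjusted p = 0.023), which is under the fold minimum.

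In the mixtures of cycloheximide with rapamycin ANB1 moved across the whole of that range. The 7 wells of lowest cycloheximide share (0.145 to 0.376) read 90.9 at the lowest, 108 at the median and 178.01 at the highest. The 6 wells of middle share read 32.7, 43.002 and 67.98, and the 6 of highest share (0.708 to 0.870) read 35.4, 42.01 and 53.9. The wells of low share do not overlap with the rest, and those of high share lie within the drug-free range. The slope was -2.91 ± 0.312 (limma adjusted p = 3.06e-08), and -1.81 (adjusted p = 0.0767) with final optical density as a covariate. With LiCl and with myriocin the median of ANB1 at low share was 35.2 and 36.3 and at high share 36.4 and 37.5, and its slope differed from that with rapamycin by -2.70 ± 0.424 and -3.42 ± 0.465.

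ANB1 also differed among mixtures without rapamycin. It read 9.25, 22.8 and 56.6 in LiCl with myriocin and 24.8, 34.1 and 52.02 in cycloheximide with LiCl, both lower than no drug in the fit (-1.45 ± 0.316, limma adjusted p = 0.000187, and -1.07 ± 0.316, adjusted p = 0.014). The second call was lost without shallow libraries (-0.90, adjusted p = 0.0728) and with drug-free cultures below an OD600 of 0.9 alone (-1.08, adjusted p = 0.0701). In myriocin with rapamycin it read 48.9, 127 and 291 and was not called. HYP2 stayed in a narrow band beside it: 308, 323 and 374 without drug, 271, 291 and 379 under cycloheximide, 306, 365 and 405 under myriocin and 230, 300 and 357 under rapamycin. On the value scale, over all 238 libraries, HYP2 had a mean of 318 and ANB1 one of 62.3.

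HEF3 and YEF3, the eEF3 pair, moved in opposite directions as the rapamycin mixtures were shifted towards cycloheximide. HEF3 read 16.5, 23.3 and 29.5 in the wells of low cycloheximide share and 6.65, 8.64 and 22.2 in those of high share, with 1 high-share well inside the low-share range. Its slope was -2.002 ± 0.407 (limma adjusted p = 0.00045), and -1.004 (adjusted p = 0.536) with final optical density as a covariate. YEF3 read 1380, 1581 and 1891 at low share and 2109, 2305 and 2396 at high share, without overlap, with a slope of 0.90 ± 0.141 (limma adjusted p = 1.49e-05). YEF3 also rose with the share in the myriocin mixtures (0.63 ± 0.142, limma adjusted p = 0.00249, and 0.33 with adjusted p = 0.403 when depth is a covariate) and was not called with LiCl, where its wells of low, middle and high share had medians of 2399, 2424 and 2506.

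HEF3 further rose along the gradients of LiCl (0.84 ± 0.242, limma adjusted p = 0.0185) and rapamycin (0.78 ± 0.126, adjusted p = 1.45e-05), and fell slightly with cycloheximide share in LiCl mixtures (-0.63 ± 0.228, adjusted p = 0.0312). That last call was lost without any 1 of the replicates 1, 2, 3, 5, 16 and 18 of cycloheximide with LiCl. In growth-matched cultures HEF3 read 11.03, 15.0 and 22.7 without drug, 7.42, 11.5 and 20.5 under cycloheximide, 17.5, 22.3 and 34.04 under LiCl and 2.48, 22.6 and 46.99 under rapamycin, none of which was called. It was called in LiCl with rapamycin, where it read 6.96, 26.8 and 33.4 (0.79 ± 0.283, adjusted p = 0.0453), a call lost in 5 of the alternatives tried. HEF3 had a mean of 20.4 over all libraries and YEF3 one of 1536, so HEF3 rests on few reads.

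The copies of eEF1A and eEF2 changed little. TEF2 had log2 changes of 0.14, 0.12, 0.10 and -0.04 under the 4 drugs in the order cycloheximide, LiCl, myriocin and rapamycin, and TEF1 had 0.15, 0.17, 0.10 and -0.06, none called. In cycloheximide with LiCl the fitted change was 0.27 ± 0.0783 for TEF1 (limma adjusted p = 0.0131) and 0.20 ± 0.075 for TEF2 (adjusted p = 0.0587), and neither was called. TEF2 rose with cycloheximide share in the myriocin mixtures (0.63 ± 0.128, limma adjusted p = 0.000789, and 0.33 with adjusted p = 0.323 when depth is a covariate), a slope that exceeded the rapamycin one by 0.60, and TEF1 did the same below the fold rule. EFT1 and EFT2, which encode the factor that moves the ribosome by a codon, had changes of 0.01 and 0.00 under cycloheximide and of -0.05 and -0.06 under rapamycin. The eEF1B gamma genes separated by the adjusted p alone: TEF4 had -0.32 ± 0.0897 and CAM1 0.14 ± 0.0642 under rapamycin, and CAM1 alone of the 56 was lower under cycloheximide than under rapamycin by that rule (-0.27 ± 0.0748, limma adjusted p = 0.0065).

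**Figure D3:**
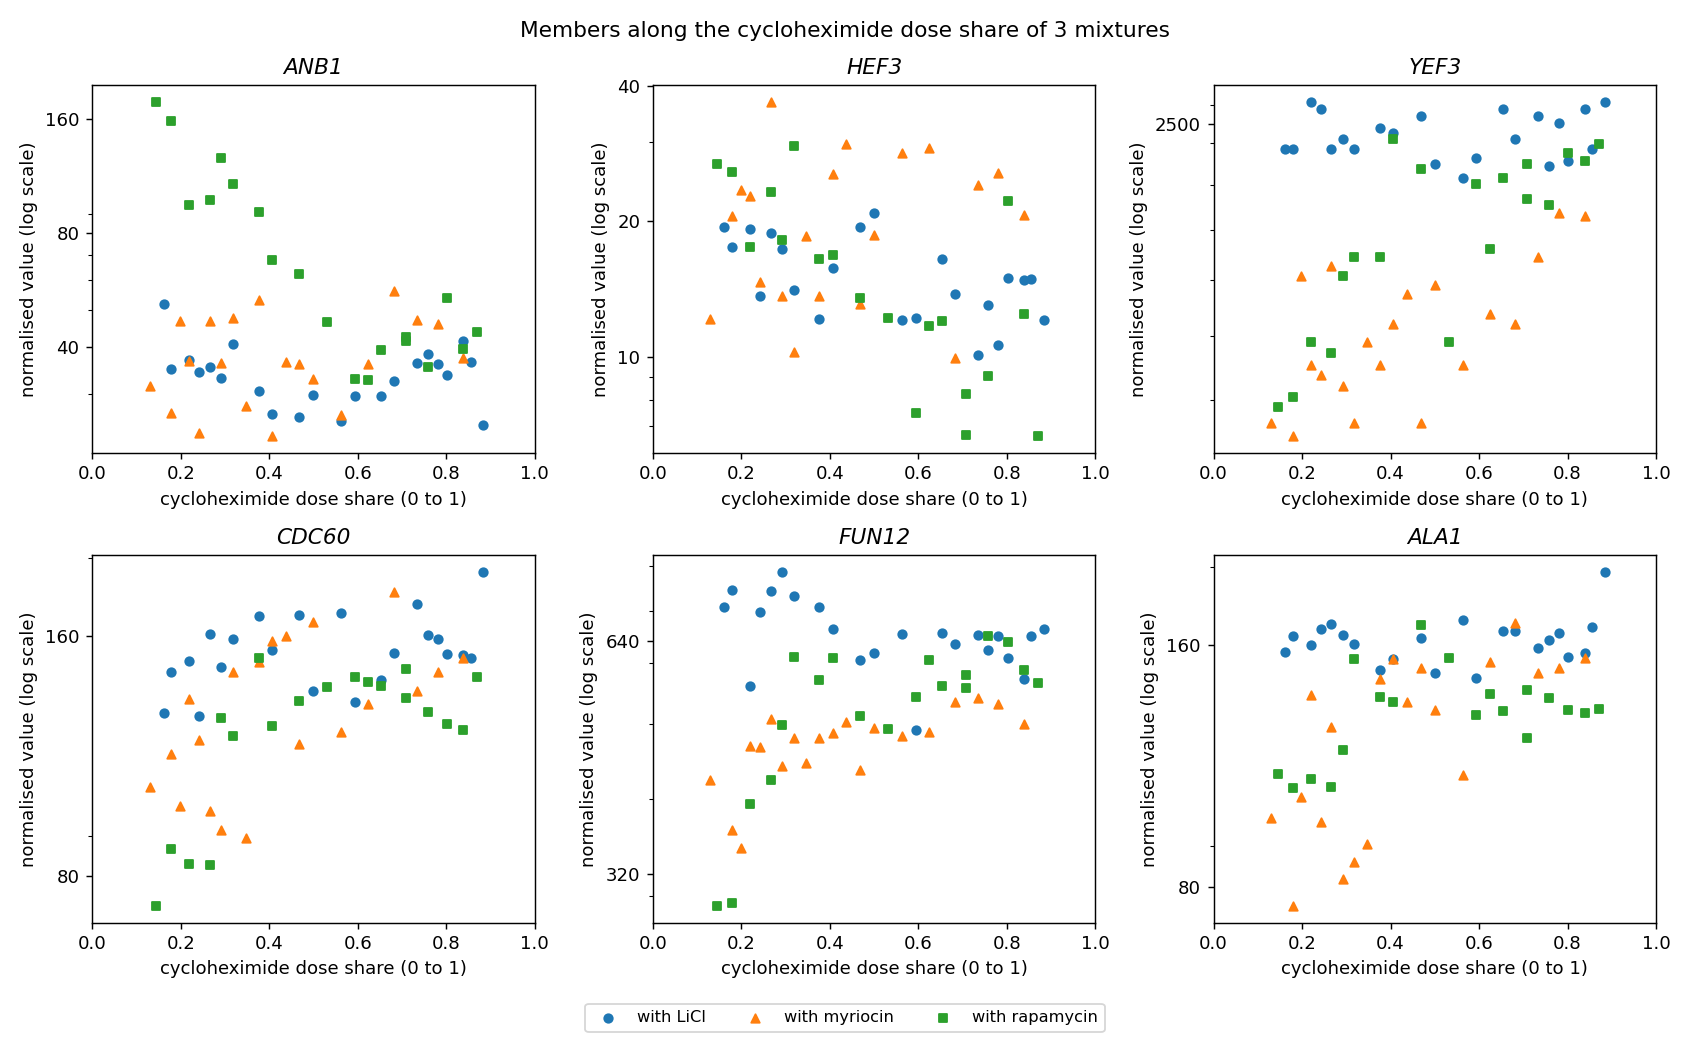
Normalised values (log scale) of ANB1, HEF3, YEF3, CDC60, FUN12 and ALA1 against the cycloheximide dose share of mixtures with LiCl (blue circles), myriocin (orange triangles) and rapamycin (green squares), each point 1 culture. ANB1 falls from 178.01 at a share of 0.145 to about the level of the other mixtures only with rapamycin, and ALA1 rises mainly with myriocin.

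In the eIF4 group, TIF4631 and TIF4632 encode the eIF4G scaffold that joins the cap-binding protein to the helicase eIF4A. TIF4631 read 17.9, 39.2 and 100.03 without drug, 52.9, 73.4 and 115 in cycloheximide with myriocin, 20.3, 43.1 and 54.1 in cycloheximide with rapamycin and 34.5, 51.5 and 66.8 in cycloheximide with LiCl. In the mixtures without cycloheximide its medians were 24.5 with LiCl and myriocin, 24.3 with LiCl and rapamycin, and 28.1 with myriocin and rapamycin, with ranges that overlap those of the others. It was higher in mixtures with cycloheximide by 0.59 ± 0.17 (limma adjusted p = 0.00593) and rose with the share in rapamycin mixtures by 0.99 ± 0.282. The call between mixtures was lost without shallow libraries (0.54) and with a pseudocount of 10 (0.47). TIF4632 was called in 0 comparisons, with 0.15 ± 0.118 between mixtures (adjusted p = 0.41). TIF1 and TIF2, the genes of eIF4A, had -0.03 and -0.03 under cycloheximide and -0.12 and -0.11 under rapamycin. The cap-binding factor CDC33 and its inhibitor CAF20 were not called, the eIF4B gene TIF3 only in the difference between the rapamycin and LiCl slopes (0.76 ± 0.175). All 7 genes of the group were lower under rapamycin, from -0.35 to -0.11, beside a median of -0.05 over all genes.

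The eIF3 genes encode the largest initiation factor, a scaffold on the small subunit. RPG1, its subunit a, read 70.1, 97.3 and 132 without drug, 97.2, 115 and 177.2 under cycloheximide and 54.9, 72.1 and 114 under rapamycin. The cycloheximide and rapamycin ranges overlap through 1 rapamycin culture at 114 (the next is 81.7), and the difference was 0.66 ± 0.148 (limma adjusted p = 0.000672). In the experiment with both drugs, RPG1 read 98.99 to 146 in 7 cycloheximide cultures and 68.8 and 73.3 in the 2 rapamycin cultures, without overlap. In mixtures it had medians of 165, 116 and 133 with cycloheximide (partners LiCl, myriocin and rapamycin) and 69.7, 66.4 and 80.1 without, a difference of 0.59 ± 0.113 (limma adjusted p = 2.42e-05) that fell to 0.54 with a pseudocount of 10 and 0.52 with library weights, under the fold minimum. It rose with the share beside rapamycin (1.01 ± 0.204) and myriocin (0.78 ± 0.255, adjusted p = 0.0491).

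NIP1, subunit c, had low values: 10.9, 16.7 and 28.8 without drug and 2.03, 15.3 and 33.2 under cycloheximide. It was higher in mixtures with cycloheximide (0.65 ± 0.206, limma adjusted p = 0.0135), with medians of 26.5, 25.8 and 17.8 beside 13.6, 10.7 and 13.7, and lay 0.67 ± 0.204 above the midpoint in cycloheximide with rapamycin (adjusted p = 0.0221). PRT1, the subunit b that binds RNA, rose with the share beside rapamycin (0.65 ± 0.168) and myriocin (0.79 ± 0.171), where its medians went from 127 to 162 and from 149 to 192.3. Its slope with LiCl was lower than with rapamycin by 0.94 and than with myriocin by 1.08. The smaller subunits HCR1, TIF34 and TIF35 were called in 0 comparisons of groups or slopes, although the TIF35 slopes with myriocin and LiCl differed by 0.63 ± 0.162.

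Of the factors that act at start codon recognition and subunit joining, SUI1, the gene of eIF1, was the only member called in growth-matched single-drug cultures against no drug. It read 108, 177.6 and 276 without drug, 137, 280 and 309 under myriocin, 178.8, 208 and 299 under cycloheximide and 165.0, 175.6 and 229 under rapamycin, and the groups overlap. Its rise under myriocin was 0.70 ± 0.106 (limma adjusted p = 1.52e-07), with the same sign in 3 of 3 experiments (0.36 to 1.05), and 0.50 without batch terms, under the fold minimum. Those experiments gave 0.42, 1.05 and 0.36, from 1, 7 and 3 myriocin cultures beside 2, 2 and 1 drug-free ones. SUI1 also rose along the myriocin gradient (0.92 ± 0.16, adjusted p = 0.000737) and in cycloheximide with myriocin (219, 261 and 301, 0.84 ± 0.141). SUI1 is also the member with the shortest coding sequence, 327 bases.

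FUN12, which encodes eIF5B, read 258, 325 and 397 without drug, 291, 509 and 623 under cycloheximide, 224, 406 and 773 under LiCl and 211, 283 and 432 under rapamycin, and the ranges overlap. Cycloheximide exceeded rapamycin by 0.59 ± 0.149 (limma adjusted p = 0.00288), while against no drug cycloheximide had 0.41 ± 0.134 (adjusted p = 0.0387) and LiCl 0.44 ± 0.129 (adjusted p = 0.00591), both under the fold minimum. Cycloheximide minus LiCl was -0.03 ± 0.157. Within single experiments the change was -0.01, 0.53 and 0.61 under cycloheximide (1, 2 and 7 cultures) and 0.21, 0.30 and 1.09 under LiCl (2, 6 and 2 cultures). Mixtures with LiCl (491, 652 and 786) and with rapamycin (291, 559 and 650) were both called above no drug (0.68 ± 0.149 and 0.60 ± 0.146), and the first does not overlap with the drug-free range. The second fell under the fold minimum without shallow libraries (0.54) and with the experiment term alone (0.56). FUN12 rose with the share beside rapamycin (1.05 ± 0.196), from medians of 424 to 583, while beside LiCl its medians were 719 at low and 650 at high share, and those slopes differed by 1.33 ± 0.214 (adjusted p = 1.48e-06). TIF5, the GTPase-activating factor eIF5, exceeded rapamycin by 0.61 ± 0.161 under cycloheximide (54.8, 81.7 and 131 against 21.4, 45.2 and 93.9), was higher in cycloheximide with myriocin than in no drug (0.65 ± 0.191) and rose with the share there (1.09 ± 0.287, adjusted p = 0.0104). TIF11, the gene of eIF1A, was not called.

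Of the 8 subunits of eIF2 and eIF2B none was called in a comparison of groups, and 4 were called in slopes on dose share or in differences between those slopes. GCD11, the GTPase subunit of eIF2, and GCD7, the beta subunit of eIF2B, rose with the share beside rapamycin (0.71 ± 0.18 and 0.99 ± 0.202, limma adjusted p = 0.00382 and 0.000476), and GCD7 read 25.8, 29.9 and 44.02 at low share and 38.5, 46.5 and 53.4 at high share. GCD1, the gamma subunit of eIF2B, fell with the share beside LiCl (-0.69 ± 0.11, adjusted p = 4.96e-06), from a median of 94.6 to 72.4 with no overlap between low (87.6 to 106.45) and high (66.3 to 80.6) share, and its LiCl slope was lower than that with rapamycin by 0.78 and with myriocin by 0.97. GCD6, the catalytic subunit of eIF2B, was called only in the difference between the slopes with myriocin and LiCl (0.88 ± 0.304). All 8 genes were lower under rapamycin and all 8 higher under cycloheximide than under rapamycin, with medians of -0.27 and 0.24. Over all genes those medians were -0.05 and 0.00.

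Of the release factors SUP35, the gene of the GTPase eRF3, whose protein can form the prion [PSI+], read 43.2, 72.1 and 93.7 without drug, 41.2, 67 and 99.04 under cycloheximide and 11.004, 49.1 and 88.4 under rapamycin, so that the ranges overlap widely. Its difference between cycloheximide and rapamycin was 0.61 ± 0.171 (limma adjusted p = 0.00772) and dropped under the fold minimum in 6 of 8 other settings. It was lower in myriocin with rapamycin than in no drug (-0.60 ± 0.185, adjusted p = 0.0297), a call lost in 6 of 8 other settings, where the change lay between -0.52 and -0.31. SUP45, the gene of eRF1, which reads stop codons, was not called: it had -0.19 ± 0.0894 under rapamycin (adjusted p = 0.141), negative in 1 of 3 experiments, and 0.30 ± 0.104 for cycloheximide against rapamycin.

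Among the 18 synthetase genes only CDC60, for leucine, and MES1, for methionine, were called between mixtures with and without cycloheximide. CDC60 read 52.9, 106 and 174 without drug, 91.2, 136 and 164 under cycloheximide, 68.9, 102 and 135 under LiCl, 35.9, 67.7 and 110 under myriocin and 55.8, 77.7 and 159 under rapamycin. It was higher under cycloheximide than under rapamycin (0.70 ± 0.16, limma adjusted p = 0.000809) and myriocin (0.66 ± 0.179, adjusted p = 0.00986), but against no drug it had 0.35 ± 0.144 (adjusted p = 0.12). Within single experiments with 1, 2 and 7 cycloheximide cultures, the change against no drug was -0.67, 0.35 and 0.62 for CDC60. For MES1 it was -0.12, 0.24 and 0.37. In the experiment with both cycloheximide and rapamycin CDC60 read 99.5 to 164 in 7 cycloheximide cultures and 55.8 and 77.7 in the 2 with rapamycin. Along the cycloheximide gradient the line gave 0.58 ± 0.107 (adjusted p = 0.00035), just under the fold minimum.

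In mixtures CDC60 read 127, 152 and 192.5 in cycloheximide with LiCl, 89.4, 132 and 181.5 in cycloheximide with myriocin and 73.5, 129 and 150 in cycloheximide with rapamycin. Without cycloheximide it read 33.9, 47.9 and 79.2 in LiCl with myriocin, 53.4, 74.6 and 114 in LiCl with rapamycin and 52.2, 71.3 and 99.6 in myriocin with rapamycin. The difference was 0.80 ± 0.123 (limma adjusted p = 1.71e-07), and 1.04 without batch terms. The grid of LiCl with myriocin was low for CDC60 also without drug, at 52.9 and 54.9. MES1 differed likewise (0.68 ± 0.112, adjusted p = 9.06e-07), with medians of 153, 104 and 129 in the mixtures with cycloheximide and 50.4, 72.01 and 83.9 in those without, and in single drugs it was higher under cycloheximide (82.4, 122 and 156) than under rapamycin (58.7, 80.3 and 114) by 0.64 ± 0.146.

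**Figure D4:**
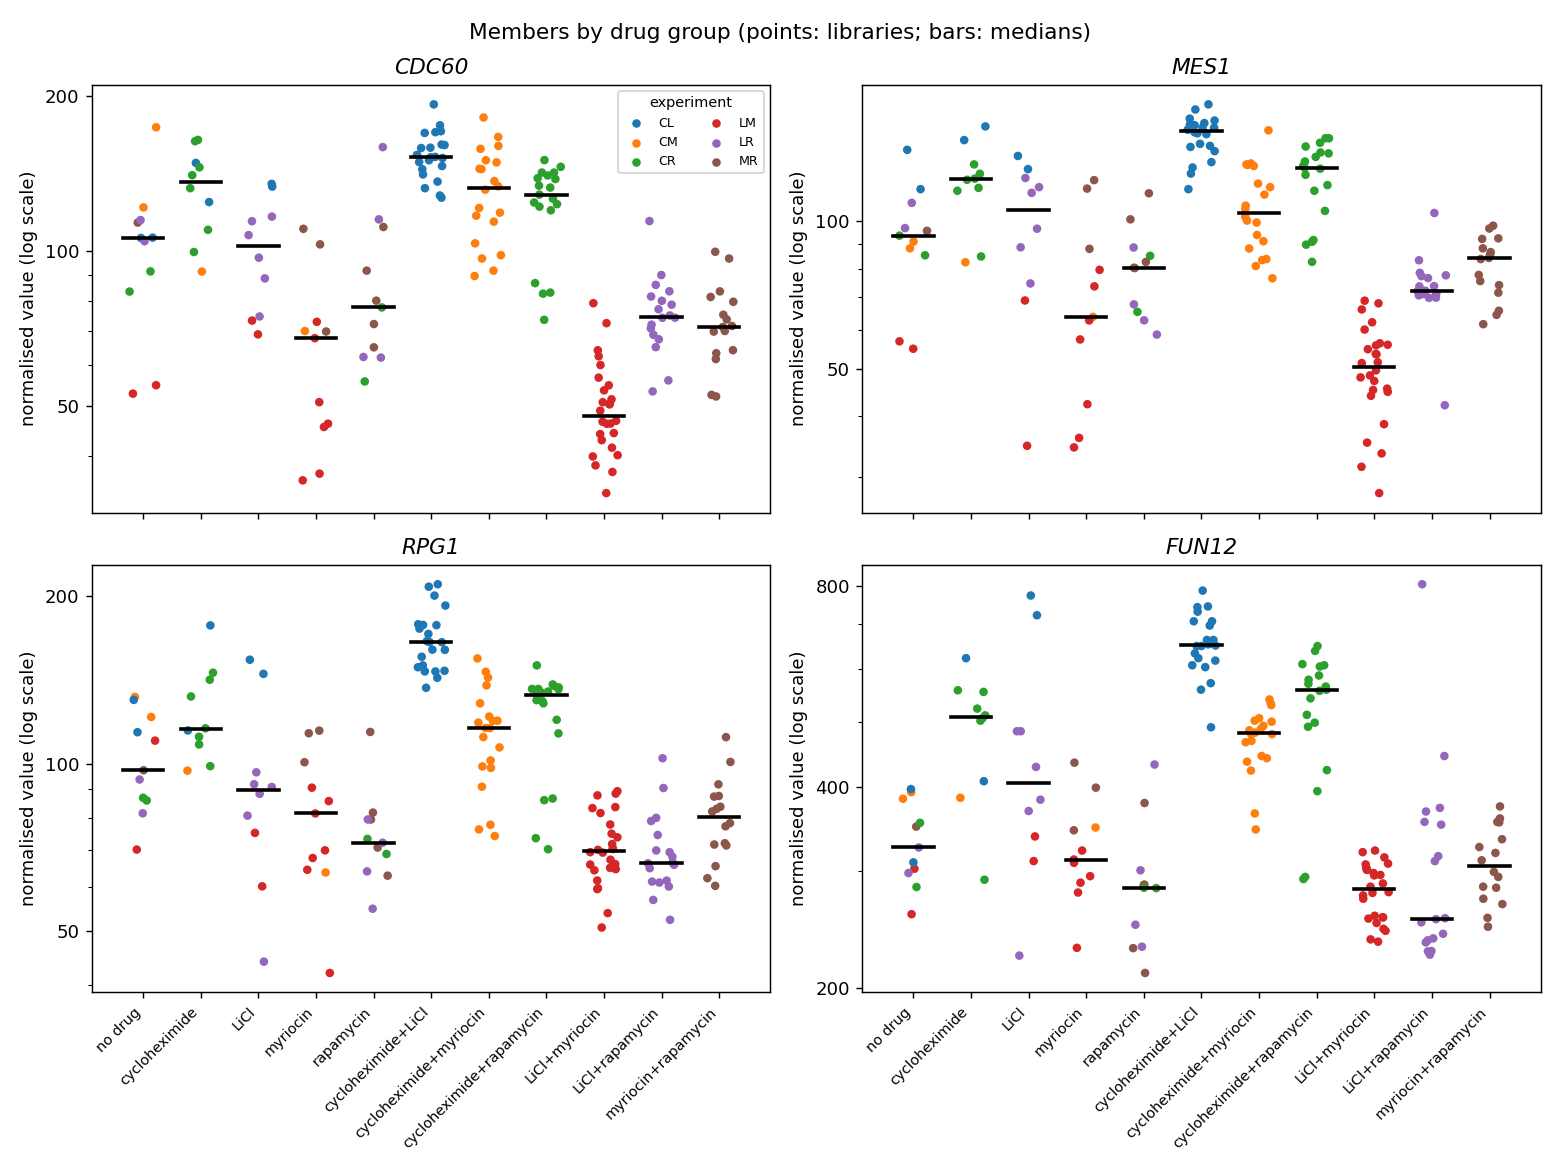
Normalised values (log scale) of CDC60, MES1, RPG1 and FUN12 in the drug-free, growth-matched single-drug and mixture groups, each point 1 culture coloured by experiment (2 letters name the drug pair: C cycloheximide, L LiCl, M myriocin, R rapamycin) and each bar the group median. For CDC60 the 3 mixtures with cycloheximide have medians of 152, 132 and 129 and the 3 without have 47.9, 74.6 and 71.3.

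GLN4, for glutamine, was higher under cycloheximide (119, 165 and 223) than under rapamycin (75.1, 103 and 134) by 0.60 ± 0.125 (limma adjusted p = 0.000238), and rose with the share beside rapamycin (1.04 ± 0.178) and myriocin (0.69 ± 0.184). ALA1, for alanine, had the steepest slope beside myriocin (1.15 ± 0.256, adjusted p = 0.00213): it read 75.8, 97.4 and 139 at low share and 110, 150 and 170 at high share. Beside rapamycin its slope was lower by 0.80 ± 0.267. WRS1, for tryptophan, rose beside myriocin (0.68 ± 0.218, adjusted p = 0.043), and FRS1, for phenylalanine, and ILS1, for isoleucine, rose beside rapamycin (0.59 ± 0.125 and 0.70 ± 0.134). The partner subunit FRS2 was not called.

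The remaining synthetase genes, DED81, DPS1, GRS1, GUS1, HTS1, KRS1, SES1, THS1, TYS1 and VAS1, were called in 0 comparisons (limma). As a class, all 18 synthetase genes were lower under rapamycin than without drug, from -0.54 to -0.09 with a median of -0.24, and by the adjusted p alone 11 were. Over all genes the median was -0.05, and 10.4% were lower by that rule. All 18 were higher under cycloheximide than under rapamycin, with a median of 0.18 and 7 by the adjusted p alone. Over all genes that median was 0.00, and 7.14% were higher. In mixtures with cycloheximide all 18 were higher than in those without, with a median of 0.34 and 13 by that rule. Over all genes the median was -0.02, and 11.1% were higher. Against no drug under cycloheximide alone the median of the class was -0.05, with 6 of 18 positive, beside -0.04 over all genes.

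Genes that work beside the members were read from lists. Of 34 other translation and ribosome-associated factors 30 were tested, and under cycloheximide TIF6, which keeps the large subunit from joining too early, and RBG2, a ribosome-interacting GTPase, rose (0.79 ± 0.2 and 0.84 ± 0.251, limma adjusted p = 0.00411 and 0.018), with a list median of 0.08 (2 of 30, 6.67%, where 3.53% of all genes were called). Along the cycloheximide gradient 5 of the 30 rose (16.7%, where 5.32% of all genes were called), among them TIF6 (1.04 ± 0.215) and NEW1 (0.89 ± 0.185), a relative of eEF3. In mixtures with cycloheximide 4 of the 30 (13.3%, against 4.99% of all genes called) were higher than in those without, with a median of 0.25. With the share beside rapamycin 8 rose (26.7%), where 19.2% of all genes were called. Of 4 other cytosolic synthetases and cofactors YDR341C rose with the share beside rapamycin (0.82 ± 0.154). The 20 mitochondrial synthetases and translation factors had a median of -0.35 under cycloheximide with all 20 below 0, and MRF1, the mitochondrial release factor, was called (-0.69 ± 0.146, adjusted p = 0.000785). Under rapamycin 3 of these 20 fell (15%, where 6.92% of all genes were called in either direction), with a median of -0.33.

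Of 8 diphthamide and hypusine enzymes 6 were tested. Diphthamide is the modified histidine of eEF2, and DPH2, which takes part in its first step, was the only gene of these lists that differed between cycloheximide and the mean of the 3 other drugs (-0.92 ± 0.22, limma adjusted p = 0.00401). DPH2 rose under LiCl against no drug (0.96 ± 0.208) and fell along the cycloheximide gradient (-0.69 ± 0.237). Of 5 genes of the Gcn4 pathway, which raises amino acid synthesis and synthetase genes when uncharged tRNA accumulates, 0 were called under any single drug in limma, while GCN4 and YIH1 fell with the cycloheximide share beside rapamycin (-0.79 ± 0.108 and -1.09 ± 0.329). Upstream windows of 3 of the 56 members (5.36%) hold TGACTC, the core read by Gcn4, on either strand, DED81, KRS1 and THS1, beside 7.2% of the 4733 windows.

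Coding length, which the choice of genes did not use, varied with some of these changes. Across the 56 genes the Spearman correlation of coding length with the log2 change was 0.65 for cycloheximide against myriocin, -0.46 for myriocin against no drug and 0.15 for cycloheximide against rapamycin. Over the 4734 tested genes with an annotated coding sequence it was 0.34, -0.36 and 0.01. These are descriptions across genes, which share their libraries. The 28 members longer than 1612 bases had a median of 0.13 for cycloheximide against myriocin and the 28 shorter ones -0.13, beside 0.11 and -0.10 for all genes. The length split was set after the values were seen.

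**Figure D5:**
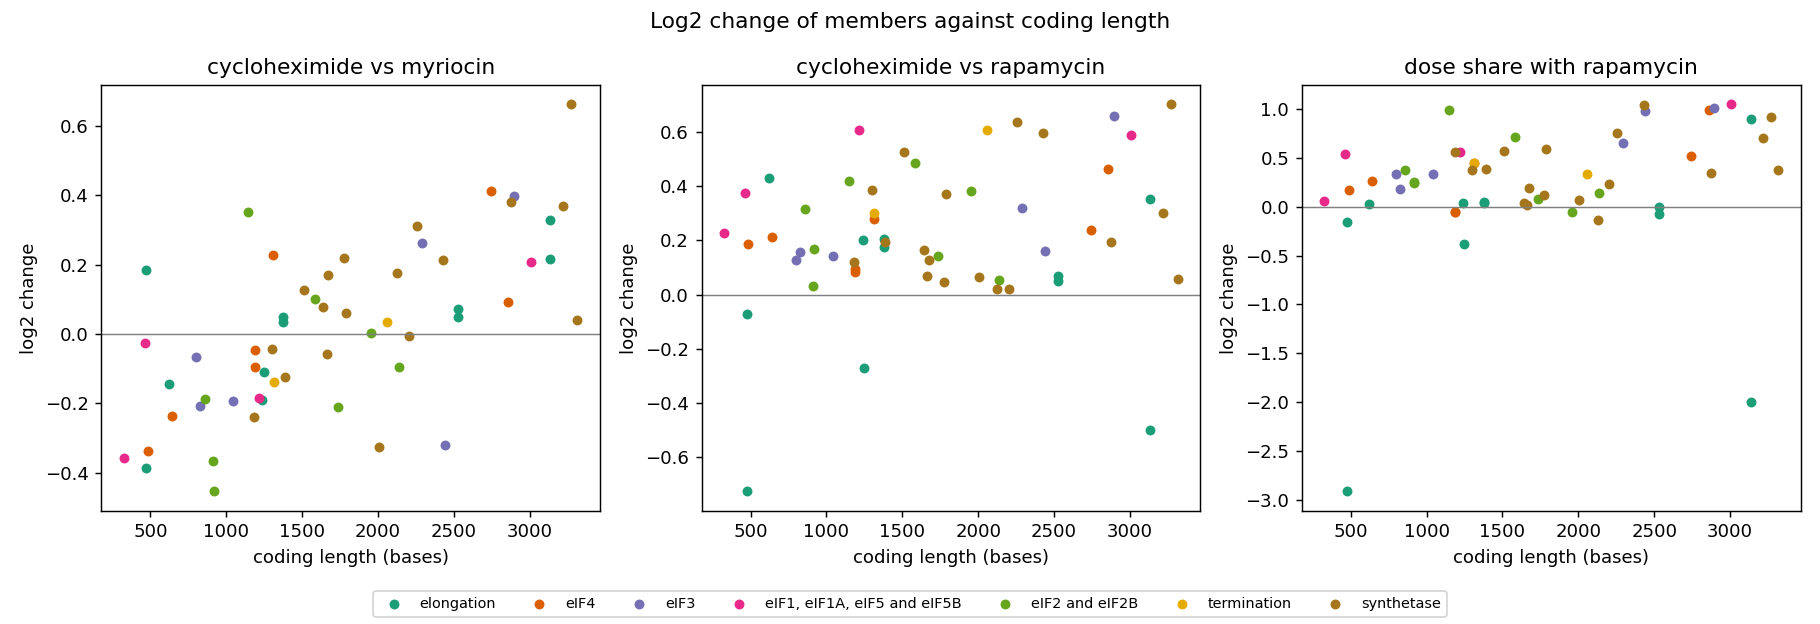
Log2 change of the 56 genes against coding length in bases, coloured by role, for cycloheximide against myriocin, cycloheximide against rapamycin and the slope on dose share beside rapamycin. In the first panel longer genes lie higher (Spearman 0.65), and in the third ANB1 at -2.91 and HEF3 at -2.002 lie apart from the others.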

How the data were processed

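The authors deposited 1 table of 6717 features in 238 libraries. Fragmented polyadenylated RNA was reverse-transcribed from barcoded poly(T) primers with a molecular identifier, per the labels' protocols, and TopHat, UMI-tools, featureCounts and build R64 are named per the submitters' processing notes. Their versions and the strand and multi-mapping settings: not given in the sources used here. The deposited values are a normalised signal and not counts: every column has the same maximum (17026.2) and nearly the same total (595181 to 596851), the pattern of quantile normalisation, which is read from the values. Depth was estimated from the value tied at 30 reads and limits the precision of low genes.

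From these, log2(value + 1) was tested in R 4.3.3 by limma 3.58.1, its variance prior following mean expression, for the 5015 genes with a mean of at least 10. The group fit took 174 libraries with terms for experiment and growth-reference set (2 levels of absolute over relative growth rate, with no meaning given by the labels). Slopes on dose share used the mixtures of 1 experiment without further terms, and gradients had the set as a term and cultures growing at 0.35 or more of the drug-free rate. Differences between share slopes were tested in a fit added after the data were seen. Scripts were tested on simulated data. Any of the 56 genes could be named. Full values were given for members called in contrasts of cycloheximide or of mixtures with and without it, for up to 8 called members elsewhere and for the 7 paralog pairs. Genes of other lists were named only where called, up to 4 for each list. The members, lists and rules were chosen with earlier results of these data known. Sequences and positions came from the RefSeq R64 genome and annotation, in which all 56 members were matched. Alternatives were the pseudocount, the filter, shallow libraries, batch terms, library weights, the growth window, covariates, drug-free cultures below an OD600 of 0.9 and leaving out single libraries.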

Additional observations from a re-analysis of the deposited data

Results flagged for a closer look

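Of 112 tests for a library that stands apart in groups of 10, 11 passed, where chance gives about 1 in 20. The groups pool cultures of several experiments, which that rate does not allow for. In growth-matched cycloheximide, replicate 1 read lowest for TEF1 (2046, next 2763), TEF2 (2046, next 2677) and FRS1 (108, next 156). It is the only culture of that group from the grid of cycloheximide with myriocin. Against the 2 drug-free cultures of that grid its log2 change was 0.11 for TEF1, 0.08 for TEF2 and -0.44 for FRS1. Replicate 4, with 87091 reads, read highest for HCR1 (132, next 82.8) and lowest for TIF35 (105, next 161), GCD1 (26.3, next 46.5) and KRS1 (295, next 369). Replicate 3, with 104188 reads, read highest for ANB1 (109, next 62.03), and replicate 2 for PRT1 (222, next 159). In growth-matched LiCl, replicate 10, with 64843 reads, read lowest for ANB1 (24.6, next 44.6) and replicate 1 for MES1 (34.8, next 68.9). The part of depth or of the experiment in these values was not tested.

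Slopes on cycloheximide dose share differed between partner drugs for 24 pairs of gene and partner drugs, tested in 1 limma fit, at an adjusted p under 0.05 and a difference of at least 1.5-fold. With rapamycin minus LiCl the difference was -2.70 for ANB1, 0.71 for FRS1, 0.76 for TIF3, 0.78 for GCD1, 0.84 for GLN4, 0.88 for YEF3, 0.94 for PRT1, 1.15 for GCD7 and 1.33 for FUN12. With rapamycin minus myriocin it was -3.42 for ANB1, -2.43 for HEF3, -0.80 for ALA1 and -0.60 for TEF2. With myriocin minus LiCl it was 0.61 for YEF3, 0.63 for TIF35, 0.66 for both TEF2 and TEF1, 0.70 for FRS1, 0.82 for FUN12, 0.88 for GCD6, 0.97 for GCD1, 1.06 for ALA1, 1.08 for PRT1 and 1.17 for TIF5. Each partner drug was a separate experiment, so partner and experiment cannot be told apart.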

How the results depend on the processing

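No paired analysis was possible because the replicate numbers follow accession order and the labels give none. For single members, 1124 values were recomputed: 954 kept direction and side of the threshold, 170 kept direction but lost the call, and 0 reversed. The counts of called members moved in these ways, among others. For cycloheximide against rapamycin, 7 in the main fit, they were 10 with library weights and 8 without shallow libraries. For mixtures with against without cycloheximide, 5 in the main fit, they were 4 with library weights. There they were also 7 in the narrower growth window and 6 with relative growth as a covariate. The other counts were these. With library weights they were 1 (cycloheximide, from 0), 1 (LiCl, from 0), 2 (rapamycin, from 0), 1 (cycloheximide against LiCl, from 0), 2 (cycloheximide against the mean of the others, from 0), and, for mixtures against no drug, 5 (cycloheximide with myriocin, from 2), 2 (cycloheximide with rapamycin, from 1) and 3 (LiCl with myriocin, from 1). Without batch terms the counts of members were 1 each for LiCl, rapamycin and cycloheximide against LiCl, 7 for cycloheximide against myriocin, 4 against the mean of the others, 15, 14 and 2 for cycloheximide with LiCl, LiCl with myriocin and myriocin with rapamycin, 17 for mixtures with against without cycloheximide, and 9, 1, 0, 4 and 1 for the midpoints of cycloheximide with LiCl, with myriocin and with rapamycin, of LiCl with myriocin and of myriocin with rapamycin. Calls over all genes rose too without batch terms, to 1071 (from 349) in cycloheximide with LiCl and 831 (from 644) in LiCl with myriocin. They rose to 618 (from 276) for cycloheximide against myriocin and 557 (from 250) for mixtures with against without cycloheximide. For the midpoint of cycloheximide with LiCl they rose to 598 (from 11). Without shallow libraries the counts of members were 1 (rapamycin), 1 (cycloheximide with LiCl), 4 (cycloheximide with myriocin), 0 (LiCl with rapamycin), 0 (midpoint of cycloheximide with rapamycin) and 2 (cycloheximide gradient). A pseudocount of 10 gave 2 for cycloheximide against rapamycin, 1 for cycloheximide with myriocin, 0 for LiCl with rapamycin, myriocin with rapamycin and the midpoint of cycloheximide with rapamycin, 2 for mixtures with against without cycloheximide, 1 for the LiCl share, 0 for the LiCl gradient and 1 for the rapamycin gradient. A growth window of 0.42 to 0.60 gave 4 for cycloheximide against rapamycin, 1 against the mean, 2 for LiCl with myriocin and for myriocin with rapamycin, and 0 for LiCl with rapamycin and for the midpoint of cycloheximide with rapamycin. Relative growth as a covariate gave 4 for cycloheximide against rapamycin and 5 and 2 for the midpoints of cycloheximide with myriocin and with rapamycin. Drug-free cultures below an OD600 of 0.9 alone gave 1 for cycloheximide with LiCl and 0 for LiCl with rapamycin and myriocin with rapamycin. The experiment term alone gave 3 for cycloheximide with myriocin, 0 for cycloheximide with rapamycin and 2 for myriocin with rapamycin. No filter gave 0 for LiCl with rapamycin, and the own experiment alone gave 1 for the midpoint of cycloheximide with LiCl. Added after the data were seen, depth as a covariate gave 1 for the LiCl share and 3 for the myriocin share, and final optical density gave 2 for the rapamycin share. Gradients without drug-free wells gave 1 (cycloheximide) and 3 (myriocin), and without the reference set 2 (myriocin). Leaving out 1 library gave 3 to 7 for cycloheximide against rapamycin, 1 to 2 for the LiCl share, 7 to 11 for the myriocin share and 12 to 18 for the rapamycin share. The cause of these moves was not tested. Depth limits low members such as HEF3 and NIP1 most.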
